A study of Trametes versicolor with 3 samples.

Results

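The genes described here are 4 pectin-degrading hydrolases of Trametes versicolor, a white-rot fungus of wood. They are the endo-polygalacturonase Trave1_172131 (jgi|Trave1|172131 in the files), the rhamnogalacturonase Trave1_73205 (jgi|Trave1|73205), the rhamnogalacturonase-like gene Trave1_141591 (jgi|Trave1|141591) and the rhamnogalacturonan hydrolase Trave1_62920 (jgi|Trave1|62920). These 4 were taken by identifier from the 11480 gene models that had a read in any library. They were chosen by their RPKM values and ratios in these same libraries, so every level and ratio of theirs is a description without a test. Mycelium was collected on day 9, when the mat had reached 4 cm, from poplar medium, from a medium with glucose as carbon source and from PDA (potato dextrose agar). The labels give a strain from the China Center of Industrial Culture Collection and name no added gene, deletion or drug for any group. The growth field of the labels reads PDA for each sample, so the groups rest on the source names. Each medium had 1 RNA-seq library, so there is no replicate error, and differences are set against counting error only.

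Pectin is the galacturonic acid-rich polysaccharide of the middle lamella and primary wall of plants, and in wood it is also found in pit membranes. Its smooth stretches, homogalacturonan, are chains of galacturonic acid, which endo-polygalacturonases cut from within. Its branched stretches, rhamnogalacturonan I, have a backbone of alternating galacturonic acid and rhamnose with arabinan and galactan side chains. Rhamnogalacturonan hydrolases, which the files also call rhamnogalacturonases, cut that backbone. Roles are given here by description, since no activity was measured.

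Uniquely assigned reads numbered 2.80 M on poplar, 2.68 M on glucose and 2.85 M on PDA. Levels are RPKM, the reads on a gene scaled to its coding length in kilobases and to the depth of the library. Parentheses give the exact 95% interval from the read count. The labels name no molecular identifiers to mark PCR copies, so these intervals speak for counting error alone. Of 43 hydrophobin and chitin synthase genes, which serve the surface and wall of hyphae, at least 1 RPKM was reached by 39 on poplar, 40 on glucose and 40 on PDA. Their summed level was 19123 RPKM on poplar, 21263 on glucose and 33766 on PDA, and its part in the results below was not tested. The highest single gene reached 3881 RPKM on poplar, 5166 on glucose and 16185 on PDA, so the sum on PDA leans on 1 gene. The median log2 ratio of RPKM plus 1 over these genes was 0.17 for poplar against PDA and -0.12 for glucose against PDA. In bulk mycelium a smaller share of hyphae expressing a gene and less RNA per hypha cannot be told apart.

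The endo-polygalacturonase Trave1_172131 was the lowest of the 4 genes on poplar and glucose, and on PDA it had the fewest reads, though not separably from Trave1_62920. It had 64 reads on poplar, 7 on glucose and 1 on PDA. These came to 20.8 RPKM on poplar (16.0 to 26.5), 2.37 on glucose (0.954 to 4.89) and 0.319 on PDA (0.00807 to 1.78). Its poplar interval lay above both others, while the glucose and PDA intervals overlapped. On poplar its level exceeded that of 55.0% of the gene models with a read, on glucose that of 17.3% and on PDA that of 1.66%.

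The rhamnogalacturonan hydrolase Trave1_62920 was the other gene with its highest level on poplar. It measured 66.8 RPKM on poplar (58.7 to 75.7), 37.7 on glucose (31.6 to 44.7) and 1.59 on PDA (0.582 to 3.45), from 248, 134 and 6 reads in that order of media. No 2 of its 3 intervals overlapped.

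The other rhamnogalacturonan-cutting genes were highest on glucose. Trave1_141591 measured 119 RPKM on poplar (108 to 131), 262 on glucose (246 to 279.9) and 5.57 on PDA (3.45 to 8.51), from 441, 930 and 21 reads. Trave1_73205 measured 84.0 RPKM on poplar (75.0 to 93.9), 199.9 on glucose (185 to 215) and 18.0 on PDA (14.0 to 22.8), from 312, 710 and 68 reads. For both genes the order was glucose, poplar, PDA with no overlap of intervals. Trave1_73205 was the only one of the 4 with more than 21 reads on PDA.

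**Figure D1:**
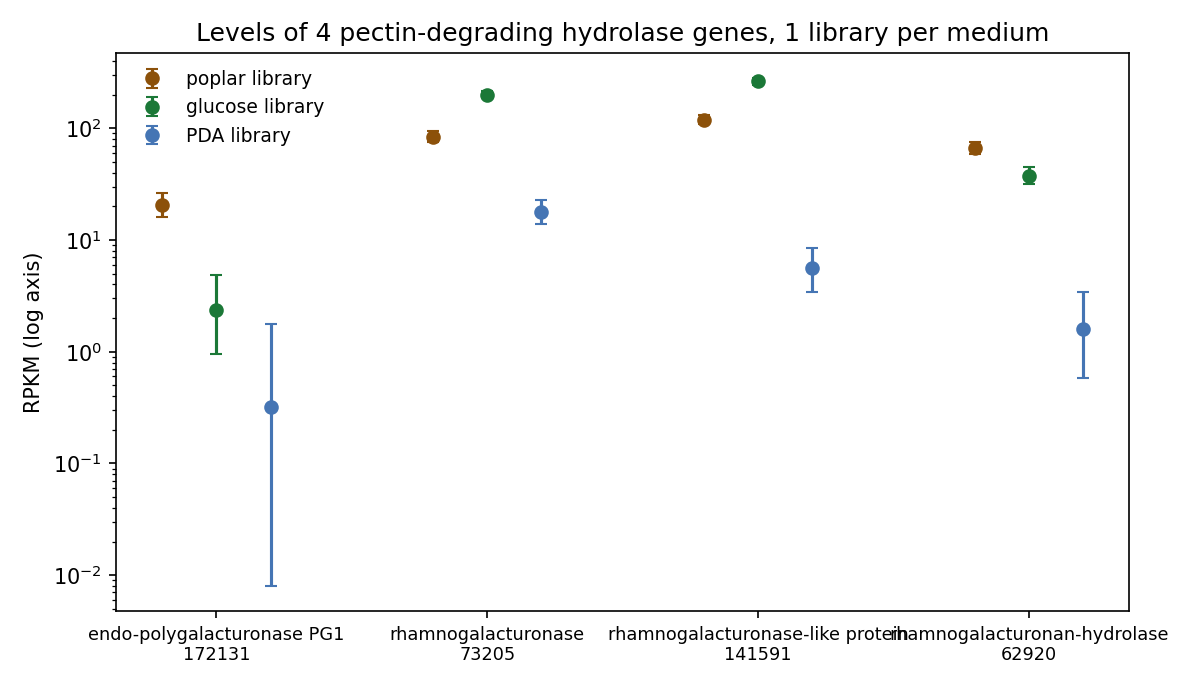
Level of each gene in RPKM on a log axis in the poplar, glucose and PDA libraries (1 library each); points are deposited values and bars are exact 95% counting intervals. All 4 genes have their lowest point in the PDA library, while Trave1_172131 and Trave1_62920 peak in the poplar library and Trave1_73205 and Trave1_141591 in the glucose library.

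The order of the genes by level also depended on the medium. On poplar Trave1_141591 led, 1.42-fold above Trave1_73205 (1.22 to 1.64), which was 1.26-fold above Trave1_62920 (1.06 to 1.49), and Trave1_62920 was 3.22-fold above Trave1_172131 (2.44 to 4.30). On glucose Trave1_141591 was 1.31-fold above Trave1_73205 (1.19 to 1.45), but Trave1_73205 was 5.30-fold above Trave1_62920 (4.40 to 6.42), and Trave1_62920 was 15.9-fold above Trave1_172131 (7.51 to 40.3). On PDA Trave1_73205 led, 3.23-fold above Trave1_141591 (1.96 to 5.55). There the ratio of Trave1_62920 to Trave1_172131 was 4.98, with an interval of 0.604 to 229 that included 1, so the lowest places were not separable at this depth. These are ratios of RPKM within a library.

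Levels of Trave1_141591 and Trave1_62920 carry a further limit, because their reads fell on only part of the gene model. The deposited coverage, the percent of the model with reads, was 42.5% on poplar, 47.5% on glucose and 23.0% on PDA for Trave1_141591. It was 50.7% on poplar, 45.6% on glucose and 15.8% on PDA for Trave1_62920. On poplar and glucose these models were not thinly read. A single read covered 49 bases, so the 930 reads of Trave1_141591 on glucose amounted to 34.4 read bases per base of the model.

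By contrast, Trave1_73205 was covered over 90.1% in the poplar library at 11.5 read bases per base, and Trave1_172131 over 80.8% at 2.85. Among the 2676 gene models with at least 200 reads in the poplar library the median coverage was 95.8%, and 1.87% of the models were covered under 60%. Trave1_141591 and Trave1_62920 were among these few. The deposited counts hold only reads assigned uniquely, and whether reads shared with similar sequences are missing from the uncovered part was not tested. Taking the best-covered length over the 3 libraries in place of the full model, a setting chosen after the data were seen, gave Trave1_141591 250 and Trave1_62920 132 on poplar, against 92.2 for Trave1_73205, in RPKM recomputed for the covered length. On that scale Trave1_62920 stood above Trave1_73205 on poplar, the reverse of their order in RPKM. A fixed length cancels in a ratio between media, so the ratios below are the same on both scales.

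**Figure D2:**
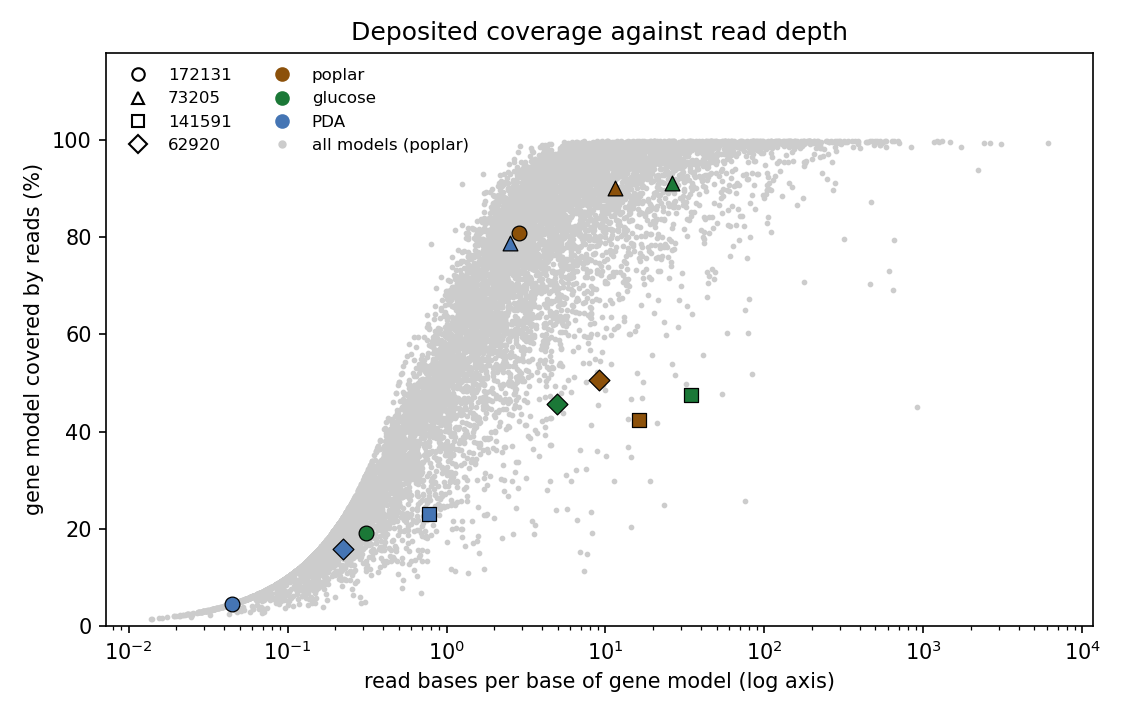
Deposited coverage of each gene model in percent against read bases per base of the model (log axis), with all gene models of the poplar library in grey and the 4 genes in the poplar, glucose and PDA libraries as coloured symbols. Trave1_141591 and Trave1_62920 on poplar and glucose stay at or under 50.7%. The median was 95.8% over poplar-library models with at least 200 reads. Trave1_62920 on glucose, with 134 reads, is less deep, and some poplar-library models near its depth are also well below 100%. Trave1_73205 and Trave1_172131 run with the grey points.

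Between poplar and glucose the 4 genes went in different directions. A gene was called at a 2-fold difference of RPKM plus 1. By that rule 1 of the 4 was higher on poplar, where 8.1% of all 10636 measured gene models were, and 2 of the 4 were lower, where 8.31% were. The rule that chose these genes used this contrast, so nothing is read from the shares. Trave1_172131 was 8.75-fold higher on poplar (4.01 to 22.6) and Trave1_62920 1.77-fold higher (1.43 to 2.20), short of the threshold. Trave1_73205 was 2.38-fold lower on poplar (2.08 to 2.73) and Trave1_141591 2.20-fold lower (1.97 to 2.47). The intervals of these last ratios overlapped each other and lay apart from those of Trave1_62920 and Trave1_172131, which in turn did not overlap.

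Against PDA each of the 4 genes was higher on poplar, where 10.8% of 10506 measured gene models were higher and 5.11% lower. Trave1_62920 was 42.1-fold higher (19.1 to 116), Trave1_141591 21.4-fold (13.8 to 34.9) and Trave1_73205 4.67-fold (3.58 to 6.17). The interval of Trave1_73205 lay below those of the other genes. For Trave1_172131 the ratio of 65.2 rested on a single PDA read and had an interval of 11.3 to 2614.

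Each of the 4 was also called higher on glucose than on PDA, where 12.7% of 10487 measured gene models were higher and 6.52% lower. Trave1_141591 was 47.1-fold higher (30.7 to 76.5), Trave1_62920 23.8-fold (10.6 to 65.9) and Trave1_73205 11.1-fold (8.66 to 14.5). Trave1_172131, with 7 reads against 1, had a ratio of 7.45 and an interval of 0.957 to 336 that included 1, so its call here was not separable from counting error. It was also lost with a pseudocount of 5 RPKM, at a log2 ratio of 0.47 against 1.36. Any pair of these 3 comparisons shares a library, so they are not separate evidence.

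**Figure D3:**
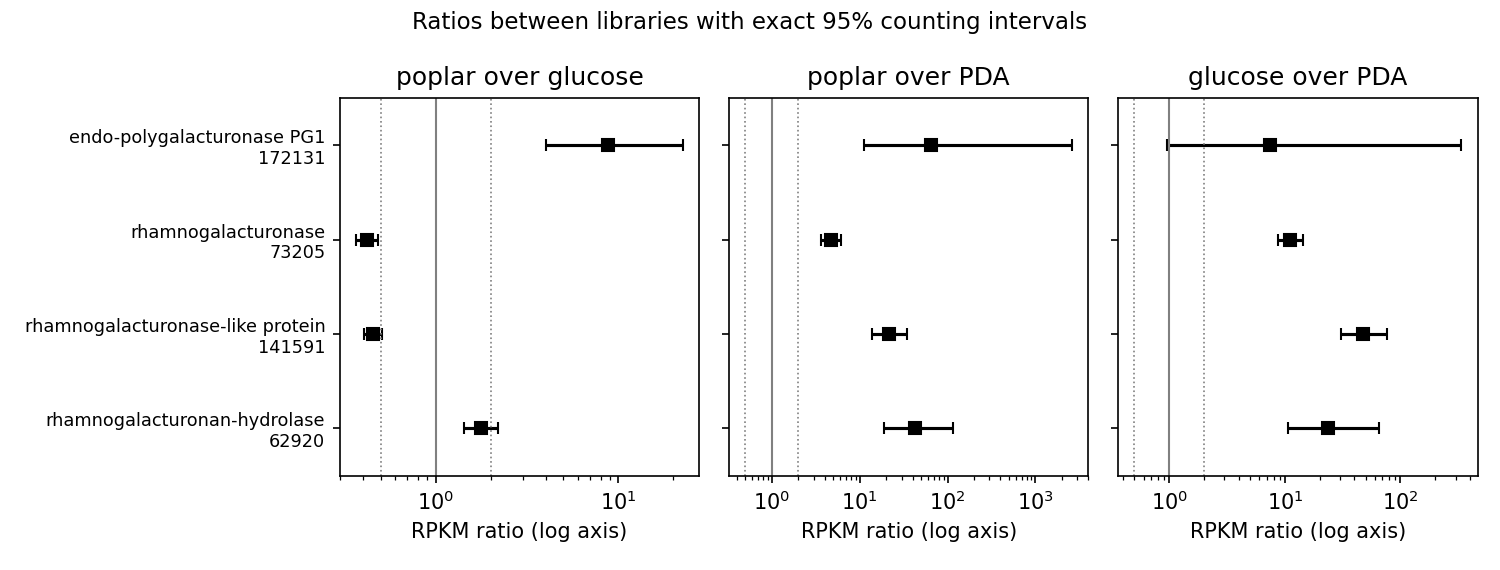
RPKM ratio of each gene on a log axis for poplar over glucose, poplar over PDA and glucose over PDA; squares are ratios, bars exact 95% counting intervals, the solid line a ratio of 1 and the dotted lines 2-fold either way. In the first panel Trave1_172131 and Trave1_62920 lie right of 1 and Trave1_73205 and Trave1_141591 left of it, while in both PDA panels every square lies right of 1.

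A second gene had the same description as Trave1_172131, endo-polygalacturonase PG1. This gene, Trave1_52686, measured 221 RPKM on poplar, 302 on glucose and 129 on PDA, from 681, 891 and 404 reads. It was therefore the more abundant transcript of the pair on each medium, 10.6-fold above Trave1_172131 on poplar. It was 1.37-fold lower on poplar than on glucose (1.24 to 1.51), in the opposite direction to Trave1_172131, and 1.72-fold higher on poplar than on PDA (1.52 to 1.95), below the interval of Trave1_172131 for that comparison. It was called higher on glucose than on PDA, at 2.35-fold (2.09 to 2.65), inside the interval of Trave1_172131. Of the reads on the pair, Trave1_172131 took 8.59% on poplar (6.68 to 10.8), 0.780% on glucose (0.314 to 1.60) and 0.247% on PDA (0.00625 to 1.37), with exact binomial intervals. Trave1_52686 was covered over 72.7% of its model on poplar and 75.7% on glucose.

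Set side by side, a grouping made after the values were seen, the 3 rhamnogalacturonan-cutting genes summed to 269.9 RPKM on poplar, 500.1 on glucose and 25.1 on PDA. The KEGG names of these 3 genes also include polygalacturonase, so the grouping rests on the descriptions alone. The 2 endo-polygalacturonases summed to 242 RPKM on poplar, 305 on glucose and 129 on PDA. The sum of the rhamnogalacturonan genes was thus 1.12 times that of the endo-polygalacturonases on poplar, 1.64 times on glucose and 0.195 times on PDA. These ratios rest on full-length RPKM. Over the covered length Trave1_141591 came to 250 RPKM on poplar and Trave1_62920 to 132, against 119 and 66.8. The ratios therefore depend on the length used, and sums over covered length were not made. On PDA Trave1_52686 alone, at 129 RPKM, exceeded the 3 rhamnogalacturonan-cutting genes together.

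The wider list of polygalacturonase and rhamnogalacturonan hydrolase genes, found by text patterns on the descriptions and KEGG names, held 9 genes, all of them measured. Its summed level was 663 RPKM on poplar, 914 on glucose and 222 on PDA. The 4 genes made up 43.9% of that sum on poplar, 55.0% on glucose and 11.5% on PDA. They were chosen by these values, so the shares and the change of the sum between media are a description. The other genes of the list summed to 372 RPKM on poplar, 412 on glucose and 196 on PDA. These shares carry the same limit, since Trave1_141591 and Trave1_62920 were read over only part of the gene model. Outside the 4, Trave1_132107 was covered over 58.15% on poplar from 69 reads, and Trave1_74301 over 15.97% from 14 reads. The sum of the list therefore carries that limit too. In reads the 4 genes were 1065 of 2255 on poplar, or 47.2% (45.2 to 49.3), and 1781 of 3020 on glucose, or 59.0% (57.2 to 60.7). On PDA they were 96 of 726, or 13.2% (10.8 to 15.9).

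**Figure D4:**
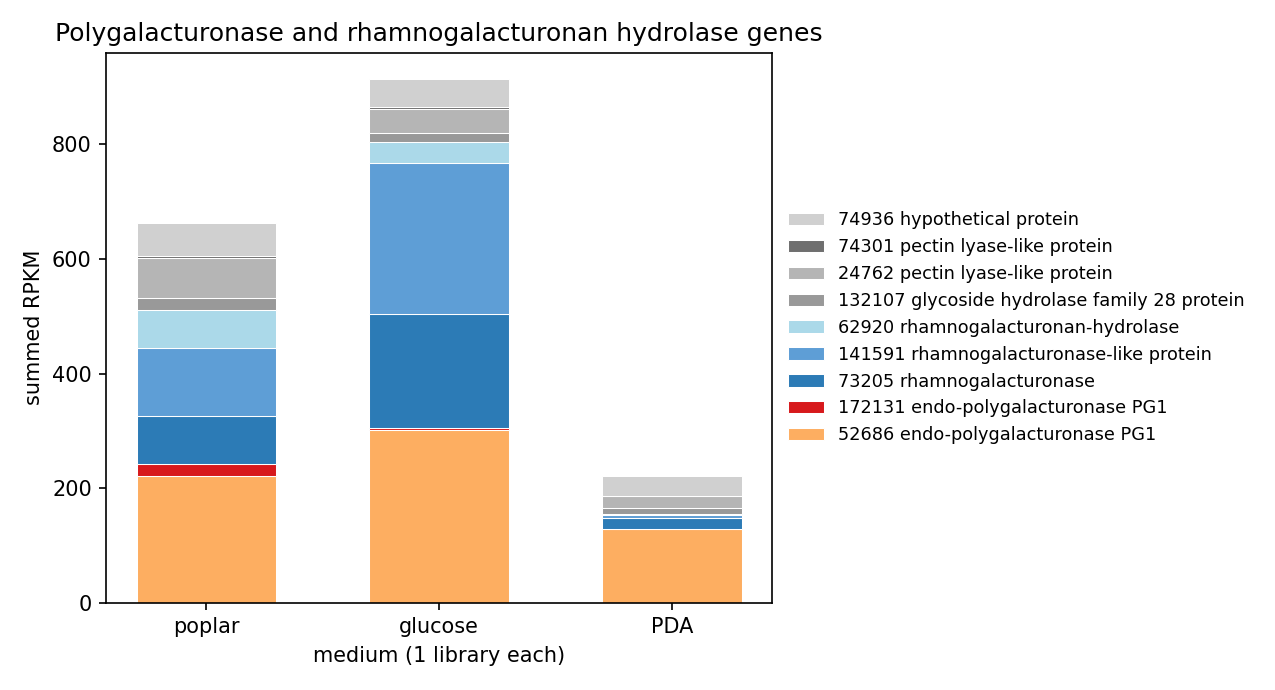
Summed RPKM of the 9 polygalacturonase and rhamnogalacturonan hydrolase genes in the poplar, glucose and PDA libraries (1 library each), with each gene as a segment. The bar reaches 663 on poplar, 914 on glucose and 222 on PDA; the blue segments of the rhamnogalacturonan genes are large on poplar and glucose and small on PDA, and the red segment of Trave1_172131 is 3.13% of the bar on poplar and 0.260% on glucose.

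Of the 5 genes of this list outside the 4, none passed 2-fold between poplar and glucose, and their median log2 ratio was 0.33, beside 0.08 over all measured gene models. Of all measured gene models 8.1% were higher and 8.31% lower on poplar than on glucose. The lack of a call among 5 genes is therefore no result about them. Against PDA 2 of the 5 were higher on poplar, with a median of 0.77 beside 0.09 over all, and 3 of the 5 were higher on glucose, with a median of 1.03 beside 0.01 over all. None was lower. Over all measured gene models 10.8% were higher on poplar and 12.7% on glucose than on PDA. The shares lower were 5.11% on poplar and 6.52% on glucose, so the lack of lower calls among 5 genes is no result either. Trave1_24762, described as pectin lyase-like and named a galacturan galacturonidase by KEGG, measured 69.9 RPKM on poplar, 41.8 on glucose and 19.9 on PDA. It was 3.52-fold higher on poplar than on PDA (2.70 to 4.63). Trave1_74936, a hypothetical protein with the same KEGG name, an enzyme that takes galacturonic acid off chain ends, measured 57.1 on poplar, 49.4 on glucose and 35.4 on PDA. Trave1_132107 had 69, 50 and 41 reads on poplar, glucose and PDA, and Trave1_74301 had 14, 10 and 2. With 2 reads on PDA the ratio of Trave1_74301 between poplar and PDA was 7.13 (1.64 to 64.6), and its calls on poplar and on glucose against PDA both rest on those 2 reads.

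Esterases and lyases of pectin were few. The lyase patterns found 4 genes, each of which was described only as pectin lyase-like, a name that polygalacturonases can carry as well, since both have a beta-helix fold. Trave1_24762 and Trave1_74301 are in this list and in the previous one, and Trave1_68445 is also in the esterase list. Of the 4, none was higher and 1 was lower on poplar than on glucose, and 2 were higher and none lower on poplar than on PDA. Those 2 were Trave1_24762 and Trave1_74301, already counted in the previous list, so they are not separate evidence. On glucose 3 were higher and none lower than on PDA, the same 2 and Trave1_68445. The shares over all measured gene models were 8.1% higher and 8.31% lower on poplar against glucose. Against PDA they were 10.8% higher and 5.11% lower on poplar, and 12.7% higher and 6.52% lower on glucose. Beside these, no lower call among 4 genes is no result about them. With a pseudocount of 5 the counts were 0 lower on poplar than on glucose, 1 higher on poplar than on PDA (also 1 with a minimum of 10 RPKM) and 1 higher on glucose than on PDA. The one that was lower, Trave1_109819, had 13 reads on poplar, 28 on glucose and 15 on PDA. The pectinesterases, which remove methyl groups from homogalacturonan and so open it to polygalacturonases, were Trave1_175746 and Trave1_68445. Trave1_175746 measured 59.8 RPKM on poplar, 39.1 on glucose and 33.7 on PDA, and Trave1_68445 94.2 on poplar, 175 on glucose and 79.4 on PDA. Neither was called between poplar and either other medium, and Trave1_68445 was 2.20-fold higher on glucose than on PDA (1.87 to 2.61).

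The list of enzymes that trim side chains and oligomers held 13 genes, of which 7 matched by description and the rest by KEGG name only. On poplar 1 was higher and 2 were lower than on glucose, with a median log2 ratio of 0.30, while 8 were higher and none lower than on PDA, with a median of 1.30. On glucose 8 were higher and none lower than on PDA, with a median of 1.62. The same medians over all measured gene models were 0.08, 0.09 and 0.01. Over all measured gene models 8.1% were higher and 8.31% lower on poplar than on glucose, so the counts of 1 and 2 lie near that background. They also came to 0 higher by description alone and 1 lower with a pseudocount of 5. Against PDA the background was 10.8% higher and 5.11% lower on poplar, and 12.7% higher and 6.52% lower on glucose. With so few lower genes over all, the lack of lower calls in this list is no result about it. The arabinogalactan endo-galactosidase Trave1_143920, which cuts galactan side chains, measured 171 RPKM on poplar, 528 on glucose and 24.5 on PDA. It was 3.09-fold lower on poplar than on glucose (2.79 to 3.43) and 21.5-fold higher on glucose than on PDA (17.0 to 27.6), the same order of media as Trave1_73205 and Trave1_141591.

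Trave1_55973 measured 179 RPKM on poplar, 102 on glucose and 17.8 on PDA. It was described as a bacterial alpha-L-rhamnosidase domain protein, of a class that removes terminal rhamnose. Its only KEGG name was that of a splicing factor. Trave1_55973 was 1.75-fold higher on poplar than on glucose (1.58 to 1.95) and 10.01-fold higher on poplar than on PDA (8.16 to 12.4). This was the order of media seen for Trave1_62920. Trave1_172131 was also highest on poplar, but its glucose and PDA levels were not separable. The six-hairpin glycosidase Trave1_22095 was the 1 gene of the list called higher on poplar than on glucose, by 2.34-fold (1.76 to 3.13), at 69.5 RPKM against 29.7.

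For each of the 4 genes the nearest patterns were sought among the 7304 gene models with at least 10 RPKM in any library. Likeness was the Euclidean distance between log2 levels of RPKM plus 1 centred on each gene's mean, over only 3 libraries. Nearest to Trave1_73205 were the GroES-like gene Trave1_38007 at a distance of 0.03, cellobiose dehydrogenase Trave1_73866 at 0.09 and the glycoside hydrolase Trave1_125645 at 0.10. Nearest to Trave1_141591 were cellobiohydrolase I Trave1_126211 at 0.30, the family 61 glycoside hydrolase Trave1_162999 at 0.32 and cellobiohydrolase II Trave1_64096 at 0.59.

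Nearest to Trave1_172131 were the hypothetical protein Trave1_53767 at 0.07, the immunomodulatory protein Trave1_166333 at 0.20 and the endo-beta-glucanase Trave1_34218 at 0.21. With 7 reads on glucose and 1 on PDA, the distances of Trave1_172131 depend on the pseudocount of 1 and carry no counting error. In RPKM Trave1_53767 measured 43.1 on poplar, 5.49 on glucose and 1.72 on PDA, against 20.8, 2.37 and 0.319 for Trave1_172131. Nearest to Trave1_62920 were the lignin peroxidase precursor Trave1_134188 at 0.42, the hypothetical protein Trave1_28669 at 0.54 and the metalloprotease Trave1_164315 at 0.60. On PDA Trave1_62920 had 6 reads and Trave1_28669 was at 0 RPKM. The distances of Trave1_62920, to the other members as well, therefore depend on the pseudocount too and carry no counting error. Within a distance of 0.5 lay 29 gene models for Trave1_73205, 4 for Trave1_172131, 2 for Trave1_141591 and 1 for Trave1_62920. None of the 4 genes lay that near to another of them. The closest of their pairs, Trave1_141591 and Trave1_62920, were 1.42 apart, and the farthest, Trave1_172131 and Trave1_141591, 3.18.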

How the data were processed

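For each library the authors deposited, per the file headers, 1 table with the count of uniquely assigned reads, the length, the coverage in percent and the RPKM of each gene model with a read. The deposited counts summed to the header totals, and the deposited RPKM values were recomputed from counts, lengths and totals. Lengths were coding lengths, since 99.3% were multiples of 3. A gene missing from a table was given 0 reads. Cufflinks 2.0.1 is listed in the submitters' processing notes, with no role. The read aligner, genome build and strandedness were not named in the labels or files, so reads from a gene and from an antisense or overlapping one are not separable. Genome coordinates and gene sequences were not used here.

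A gene was measured at 1 RPKM in either library and called at a 2-fold ratio of RPKM plus a pseudocount of 1. Folds of single genes are RPKM ratios, with no pseudocount and with exact conditional 95% intervals, and levels have exact Poisson intervals. Calculations used Python 3.11.15, NumPy 2.4.6, pandas 2.3.3 and SciPy 1.17.1, and were checked on simulated data. A single read on 1 kb came to 0.357 RPKM on poplar, 0.373 on glucose and 0.351 on PDA.

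The members, lists and rules were chosen with earlier results of these data known. Named genes were the 4 members, each gene of the first 3 lists (polygalacturonases and rhamnogalacturonan hydrolases, lyases, esterases), the highest and lowest called ratio of at least 10 RPKM in the side-chain and catabolism lists, and the 3 nearest patterns of each member. Alternatives were pseudocounts of 0.1 and 5, no minimum or 10 RPKM, median-of-ratios and trimmed-mean scaling, lists by description alone, and covered length.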

Additional observations from a re-analysis of the deposited data

How the results depend on the processing

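With 1 library per medium no library could be left out. No paired analysis was possible because each group has a single sample. Of 48 log2 ratios of the 4 genes under other settings, 41 stayed within the counting interval and on the same side of 2-fold, and none changed sign among called values. The other 7 came from a pseudocount of 5, whose construction shrinks low levels. With it Trave1_172131 had 1.80 for poplar against glucose, 2.28 for poplar against PDA and 0.47, no longer called, for glucose against PDA. Trave1_141591 had 3.55 for poplar against PDA and 4.66 for glucose against PDA, and Trave1_62920 3.45 and 2.70. Of the 12 genes in the 3 pectinase lists together, 8 were higher on glucose than on PDA, and 5 with that pseudocount. Over all measured gene models 12.7% were higher by the main rule. The 8 include all 4 genes that were chosen by these values. By description alone the polygalacturonase and rhamnogalacturonan hydrolase list held 5 genes and left out Trave1_62920. Of these, 3 were higher on poplar and 4 on glucose than on PDA, instead of 6 and 7. The 3 called on poplar were Trave1_172131, Trave1_73205 and Trave1_141591, which are also among the 4 called on glucose. All 4 chosen genes are among the 6 and among the 7, so these counts are no separate evidence about the list. Over all measured gene models 10.8% were higher on poplar and 12.7% higher on glucose. Both other scalings moved no level out of its interval, and covered length moved 6 of 12. Few reads limit Trave1_172131 on glucose and PDA, at 7 and 1, and Trave1_62920 on PDA, at 6.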

Other observations

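The list of galacturonate, rhamnose and arabinose catabolism was meant to cover the use of sugars released from pectin. It held 14 genes, all measured, and only 2 matched by description, a xylitol dehydrogenase and a D-xylulose kinase. None of the descriptions or KEGG names in the list names galacturonate or rhamnose. Another 8 entered through the KEGG name galactonate dehydratase, and 5 of the 14 also carry KEGG names of transcriptional regulatory proteins. The list is therefore loosely defined, and its counts cannot speak for the use of galacturonate or rhamnose. Of the 14 genes none was higher or lower on poplar than on glucose. On poplar 2 were higher than on PDA, with a median log2 ratio of 0.11 over the list, beside 0.09 over all measured gene models. On glucose 1 was higher than on PDA, with a median of 0.22 beside 0.01. The counts lie near the shares over all measured gene models, 8.1% higher and 8.31% lower on poplar against glucose, 10.8% higher on poplar against PDA and 12.7% higher on glucose against PDA, so they are no result about the list. The highest ratio between poplar and PDA was that of Trave1_30606, described as a mannitol dehydrogenase, at 71.2 RPKM on poplar against 25.0 on PDA, 2.85-fold higher (2.17 to 3.77). The highest between glucose and PDA was that of Trave1_31151, an enolase C-terminal domain-like protein named a galactonate dehydratase by KEGG, at 31.2 RPKM on glucose against 14.2 on PDA, 2.20-fold higher (1.54 to 3.18). By description alone the counts were 0 on poplar and 0 on glucose against PDA.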
